A study of Mus musculus with 20 samples.

Results

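The genes described here are 39 complement and clotting factors that liver secretes into blood, taken by name from the 53599 gene symbols of the count tables. 16 belong to the complement system (C1ra, C2, C3, C4b, Hc, C6, C8a, C8b, C8g, C9, Cfb, Cfi, Masp1, Masp2, Mbl1 and Mbl2). The other 23 belong to clotting, its inhibitors and clot breakdown (F2, F5, F7, F9, F10, F11, F12, F13b, Fga, Fgb, Fgg, Proc, Pros1, Proz, Serpinc1, Serpind1, Serpinf2, Plg, Kng1, Kng2, Klkb1, Cpb2 and Vtn). All 39 were found in both tables, and all 39 passed the filter on low counts in every comparison.

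RNA of whole liver was sequenced from male and female mice of 2 genotypes, those lacking the nuclear receptor PPARa (KO) and those expressing human PPARa from a transgene (hPPARa). From weaning, and for 6 to 7 weeks, they drank NERL water sweetened with 0.5% sucrose as vehicle, or the same water carrying PFOA (perfluorooctanoic acid), a fluorinated surfactant that persists in the body, at 8 µM (the submitters' text has 8 µm, read here as micromolar). Every group ate the same custom diet with 51.8% of its energy from carbohydrate, 33.5% from fat and 14.7% from protein. The 20 libraries comprised, for hPPARa, 3 females and 2 males on vehicle and 2 females and 3 males on PFOA, and, for KO, 1 female and 3 males on vehicle and 3 females and 3 males on PFOA. The strain, the promoter of the transgene, the deleted part of Ppara and the fate of the mouse receptor in hPPARa mice were not given in the sources used here. No mouse with its native receptor alone was among the samples, so each genotype comparison set mice carrying the transgene against mice lacking PPARa. The labels do not say that replicates are separate animals, and every p-value here therefore reflects the spread among the samples alone.

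Complement is a cascade of plasma proteins in which recognition molecules, acting through serine proteases, cleave C4, C2 and C3, and in which C5 to C9 then assemble into a pore in the target membrane. Clotting runs through a contact arm and a tissue factor arm to thrombin, which turns fibrinogen into fibrin, while antithrombin and protein C restrain it and plasmin dissolves the clot. Hepatocytes make most of these proteins, under liver-enriched transcription factors such as HNF4A and the C/EBP proteins, and some of them change in the acute phase of inflammation. PPARa, the receptor that fatty acids and fibrate drugs activate, induces genes of fatty acid oxidation.

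The libraries held between 14973673 and 17953860 counts. Between 6.62% and 14.0% of counts were mitochondrial, with the lowest shares, 6.62% and 6.89%, in the hPPARa females on PFOA. Ehhadh, a PPARa-induced peroxisomal enzyme, rose with PFOA by 3.96 ± 0.13 (log2 fold change ± SE) in hPPARa livers and by 1.44 ± 0.20 in KO livers (edgeR quasi-likelihood test, adjusted p = 1.09e-09 and 0.000827). Ppara itself read 16.6 to 39.5 CPM (counts scaled to library size) in hPPARa and 8.47 to 25.2 in KO libraries, which checks no label because the deleted part is not known. 3 KO libraries held transcripts of the other sex beside those of their labelled sex and are called here mixed libraries. Xist, which females express, read 31.0 CPM in KO male PFOA replicate 2, against at most 4.42 in the other males. The Y-linked Ddx3y read 43.8 CPM in that library, within the 37.3 to 55.0 of the other males. Ddx3y read 4.07 CPM in KO female PFOA replicate 2 and 1.85 in KO female vehicle replicate 1, against at most 0.406 in the other females. Xist in these 2 libraries, at 499 and 475 CPM, lay within the 428 to 867 of the other females. KO female vehicle replicate 1 is the only KO female on vehicle, and its bile duct markers summed to 271 CPM, against 82.4 to 107 in the KO males on vehicle.

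Promoter sequence was set beside the values for 4 of the genes on which the results turn. C9, F11 and Klkb1 showed the largest called falls with PFOA in hPPARa livers with both sexes in the fit, and C6 was called between males and females in both genotypes. C8a was also called between the sexes in both, and its sequence is not printed. Each line gives the 250 bases before the transcription start site from RefSeq (build GRCm38.p6), 5′ to 3′ on the strand of the gene. Capitals mark TTGCNNAA, the core that C/EBP proteins bind, read on either strand in C9, F11 and Klkb1. In C6 they mark AGGTCA, the half-site of nuclear receptors.
C9, chr15:6445096-6445345, plus strand: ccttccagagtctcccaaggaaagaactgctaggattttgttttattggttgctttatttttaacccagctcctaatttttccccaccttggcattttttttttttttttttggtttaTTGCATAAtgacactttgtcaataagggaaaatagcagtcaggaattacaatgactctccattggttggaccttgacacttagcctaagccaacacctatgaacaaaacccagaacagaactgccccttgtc
F11, chr8:45262032-45262281, minus strand: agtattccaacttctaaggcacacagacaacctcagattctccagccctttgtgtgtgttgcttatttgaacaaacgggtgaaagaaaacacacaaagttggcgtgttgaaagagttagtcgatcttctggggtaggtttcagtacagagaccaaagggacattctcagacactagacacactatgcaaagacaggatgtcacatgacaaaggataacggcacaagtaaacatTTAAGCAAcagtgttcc
Klkb1, chr8:45294836-45295085, minus strand: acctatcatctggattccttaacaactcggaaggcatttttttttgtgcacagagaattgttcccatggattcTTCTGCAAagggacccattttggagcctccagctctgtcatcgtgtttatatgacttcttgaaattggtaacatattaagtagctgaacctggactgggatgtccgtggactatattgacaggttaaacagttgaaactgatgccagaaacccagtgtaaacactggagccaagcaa
C6, chr15:4726960-4727209, plus strand: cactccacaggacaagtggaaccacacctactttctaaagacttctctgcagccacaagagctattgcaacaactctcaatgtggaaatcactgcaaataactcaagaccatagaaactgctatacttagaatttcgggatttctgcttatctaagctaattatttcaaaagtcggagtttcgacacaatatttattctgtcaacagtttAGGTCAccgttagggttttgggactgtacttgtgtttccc
The motif began 132 bases before the start site in C9, 17 in F11, 177 in Klkb1 and 40 in C6. Of the 39 genes, 31 had an entry in the promoter table, with 32 windows of 300 bases, from 250 before to 50 after the start. TTGCNNAA was found on either strand in 11 of the 32 windows (34.4%), against 10.8% of all 32851 promoter windows. AGGTCA was in 13 windows (40.6%, against 16.3%). GTTAAT, the half-site of HNF1 proteins, was in 10 windows, that of C8a among them (31.2%, against 7.1%). TTCCNGGAA, the STAT3 site of acute phase genes, was in the windows of Fga and Pros1 (6.25%, against 1.15%). The full repeat of AGGTCA with 1 base between the copies (DR1), to which PPARs bind with RXR, was in 0 of the 32 windows and in 0.0396% of all. With so rare a match, 0 in 32 windows cannot show whether looser forms of the site are present. These are matches of letters, and binding was not measured.

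With PFOA in hPPARa livers 15 of the 39 genes fell and 0 rose, with 6 of 16 complement and 9 of 23 clotting genes among those that fell. Over all 14400 genes tested, 9.76% fell and 12.8% rose. The edgeR test compared 5 libraries on PFOA with 5 on vehicle, with sex as a term and p-values adjusted over all genes. The median log2 fold change was −0.25 over the 39 genes, −0.12 over complement and −0.27 over clotting, against −0.01 over all genes, and 33 of 39 values lay below 0. At an unadjusted p under 0.05, 0 were higher and 20 lower, and DESeq2 called 0 higher and 17 lower. For 13 genes every PFOA library lay below every vehicle library, which held for 5.22% of all genes. The number that fell was 7 without hPPARa male vehicle replicate 1 and 6 without either hPPARa female PFOA replicate 1 or hPPARa female PFOA replicate 2. C8g, C9, F11 and Klkb1 were called without any 1 of the 10 libraries. In bulk RNA, fewer cells of a type and less RNA per cell cannot be told apart.

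**Figure D1:**
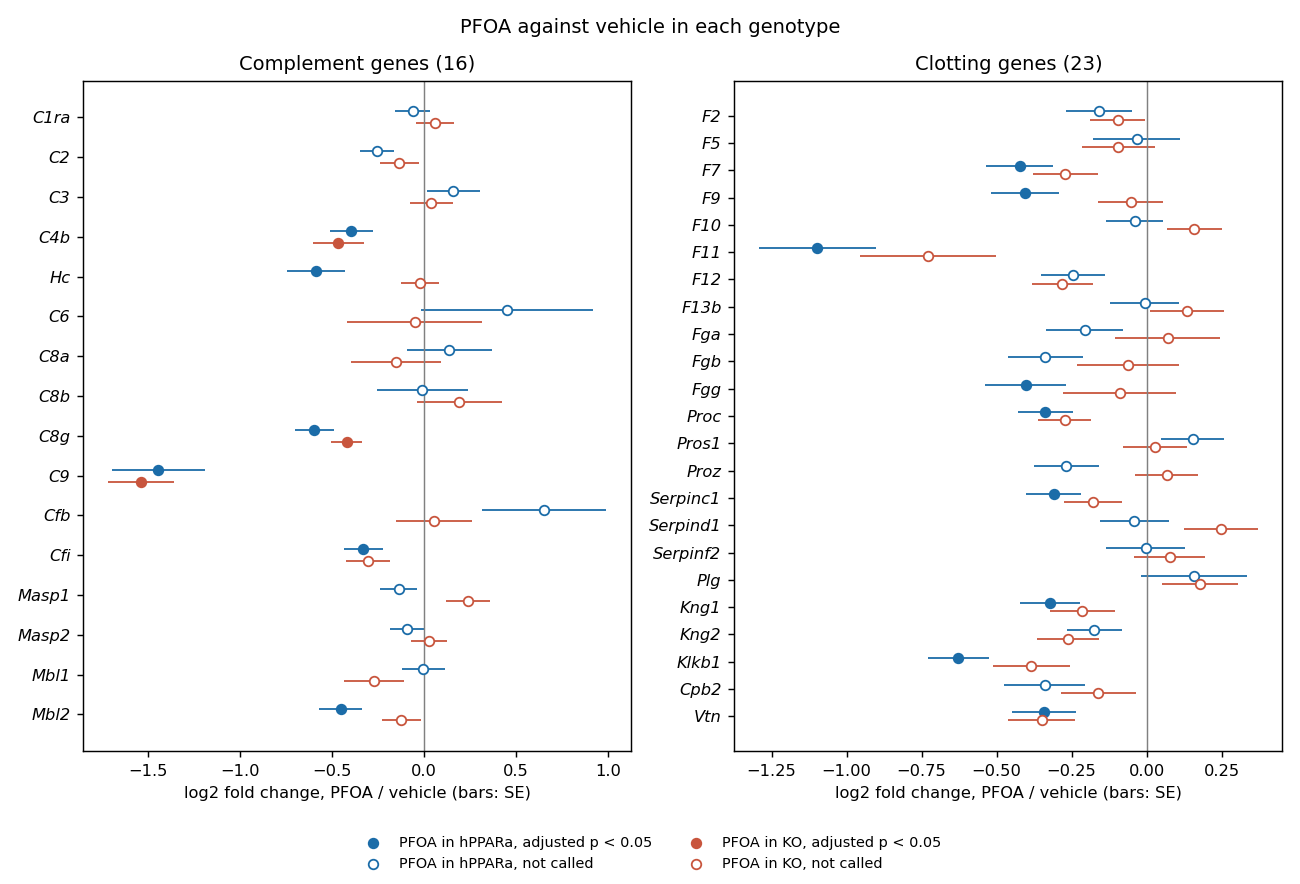
Log2 fold change with PFOA (x axis, error bars ± SE) of each of the 39 genes in hPPARa and in KO livers, complement and clotting genes apart, with filled points for an adjusted p under 0.05. The filled hPPARa points all lie left of 0, from C9 at −1.44 to Serpinc1 at −0.31, and the filled KO points are C9, C8g and C4b.

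The lectin and classical arms start the cascade. Mbl2, a mannose-binding lectin that recognises microbial sugars, read 413, 426 and 494 CPM in hPPARa females and 321 and 328 in males on vehicle, and 291 and 279 in females and 287, 298 and 241 in males on PFOA. All 5 PFOA libraries lay under all 5 vehicle libraries, and Mbl2 fell by 0.45 ± 0.12 on the log2 scale (adjusted p = 0.0133). The call was lost without hPPARa female PFOA replicate 1 (0.0657) or hPPARa female PFOA replicate 2 (0.07). C4b, a form of C4 cleaved early in the classical and lectin arms, ranged from 701 to 826 CPM on vehicle and from 466 to 695 on PFOA. It fell by 0.40 ± 0.12 (adjusted p = 0.0254), a call that ended at adjusted p between 0.0519 and 0.0921 without hPPARa male vehicle replicate 1, hPPARa female PFOA replicate 1 or 2, or hPPARa male PFOA replicate 3. Mbl1, Masp1 and Masp2, the other lectin and its proteases, and C1ra, the protease of C1, did not pass, with adjusted p of 0.334 or more and the value farthest from 0 for Masp1 (−0.14). C2, the protease that joins C4, stood at −0.26 ± 0.09 (adjusted p = 0.0604).

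At the centre of the cascade, C3 read 5616 to 7290 CPM on vehicle and 4871 to 8589 on PFOA, with the 2 highest values in the females on PFOA, and its change of 0.16 ± 0.14 did not pass (adjusted p = 0.445). Cfb, the protease of the alternative pathway, was the only complement gene besides C6 with a value above 0.4, at 0.65 ± 0.34 (adjusted p = 0.204). Without hPPARa male PFOA replicate 1, at 6.76 CPM the lowest library on PFOA, it was called higher at 0.86 (adjusted p = 0.019), the 1 gene called higher with any single library left out. Cfi, the protease that inactivates C3b and C4b, ranged from 555 to 705 CPM on vehicle and from 372 to 549 on PFOA. It fell by 0.33 ± 0.11 (adjusted p = 0.0394), and the call ended with library totals in place of TMM factors (adjusted p = 0.0571) and without any 1 of 7 libraries: hPPARa male vehicle replicates 1 and 2, hPPARa female vehicle replicate 3, hPPARa female PFOA replicates 1 and 2 and hPPARa male PFOA replicates 2 and 3 (adjusted p between 0.0531 and 0.112).

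Of the genes of the pore pathway, C9, C8g and Hc fell and C6, C8a and C8b did not pass. C9, which polymerises to form its wall, read 271, 279 and 305 CPM in hPPARa females and 641 and 876 in males on vehicle. On PFOA it read 172 and 153 CPM in females and 147, 255 and 149 in males. Every PFOA library lay below every vehicle library, and C9 fell by 1.44 ± 0.25 on the log2 scale, or 2.72-fold (adjusted p = 0.00306). C8g, the gamma chain of C8, read 371, 446 and 482 CPM in females and 493 and 458 in males on vehicle, against 304 and 308 in females and 329, 309 and 265 in males on PFOA. It fell by 0.60 ± 0.10 (adjusted p = 0.0013), again with no overlap. Hc, which encodes C5, fell by 0.59 ± 0.16 (adjusted p = 0.0172), from 245 to 371 CPM on vehicle to 145 to 230 on PFOA. That call ended without hPPARa female PFOA replicate 1 (0.0874) or hPPARa female PFOA replicate 2 (0.072), the 2 lowest libraries. C6, C8a and C8b, the parts that join C5 and C9, stood at 0.45 ± 0.47, 0.14 ± 0.23 and −0.01 ± 0.25 (adjusted p = 0.532, 0.704 and 0.984).

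**Figure D2:**
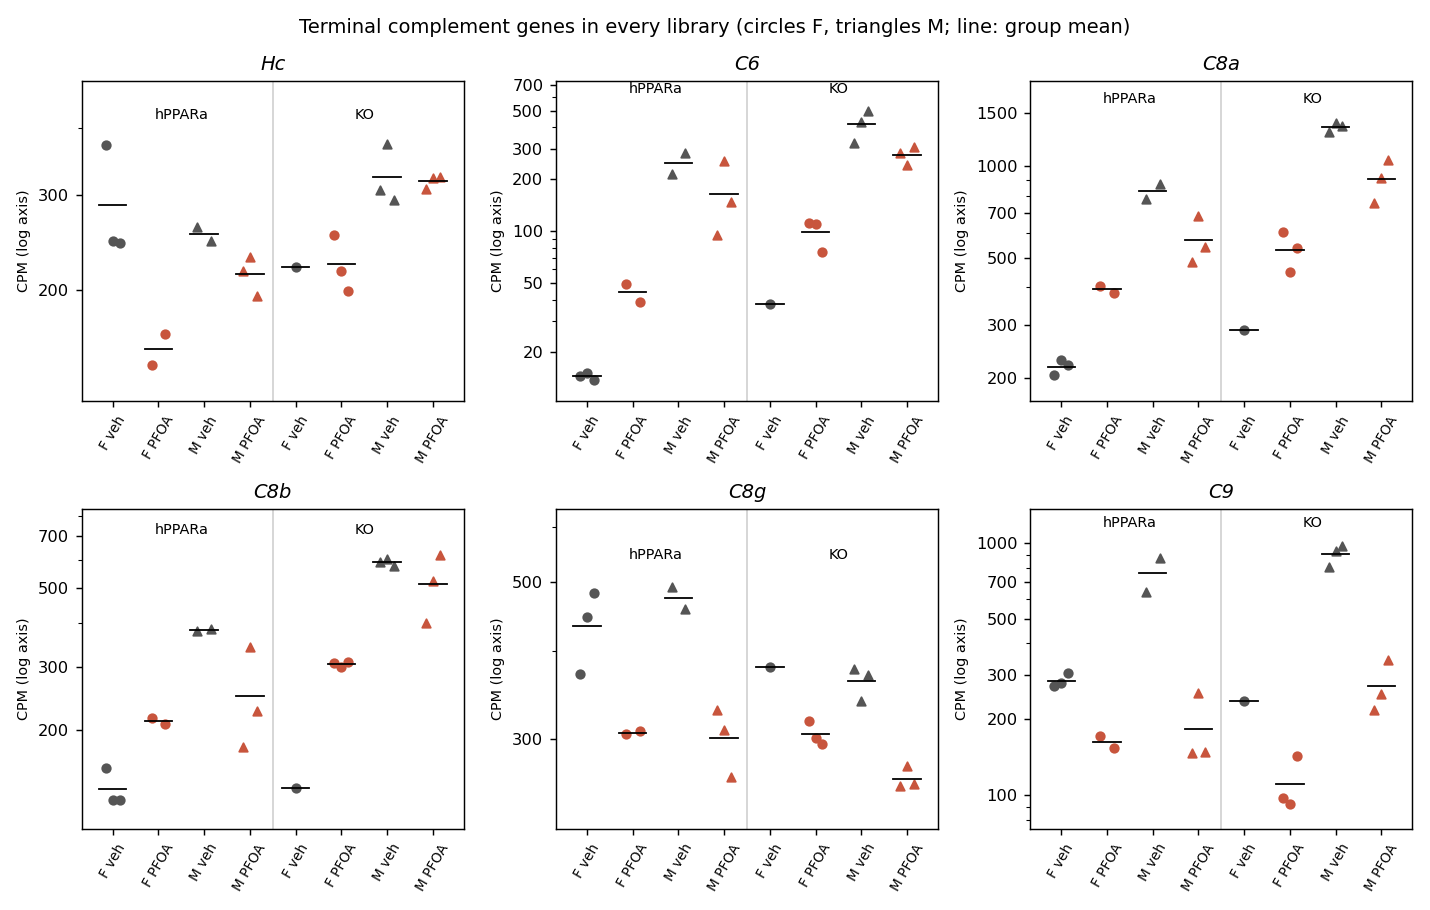
CPM of the 6 genes of the pore pathway in each of the 20 libraries (log y axis), by genotype and exposure, with circles for females, triangles for males and lines for group means. C9 sits lower on PFOA in both genotypes, while for C6, C8a and C8b the gap between males and females is narrower on PFOA than on vehicle.

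In the contact arm of clotting, F11, the zymogen of factor XI that activates factor IX, showed the largest fall of the 23. It read 181, 125 and 193 CPM in hPPARa females and 179 and 155 in males on vehicle, and 84.9 and 86.2 in females and 48.9, 105 and 63.1 in males on PFOA. The libraries did not overlap, and F11 fell by 1.10 ± 0.19, or 2.14-fold (adjusted p = 0.00225). Klkb1, plasma prekallikrein, fell by 0.63 ± 0.10 (adjusted p = 0.000729), from 232, 228 and 277 CPM in females and 237 and 230 in males on vehicle to 164 and 157 in females and 169, 161 and 129 in males on PFOA. Kng1, the kininogen that carries both proteins, fell by 0.32 ± 0.10 (adjusted p = 0.0339). The Kng1 call ended with library totals in place of TMM factors (0.0613), with no filter on low counts (0.0661), and without hPPARa male vehicle replicate 1 or 2, hPPARa female PFOA replicate 1 or 2, or hPPARa male PFOA replicate 3 (adjusted p between 0.0584 and 0.113). F12 and Kng2 stood at −0.25 ± 0.11 and −0.17 ± 0.09 (adjusted p = 0.113 and 0.188).

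F7, the protease that tissue factor binds, ranged from 95.7 to 130 CPM on vehicle and from 64.4 to 99.7 on PFOA, and fell by 0.42 ± 0.11 (adjusted p = 0.0155). It was not called without hPPARa male vehicle replicate 1 (−0.31, adjusted p = 0.0727). F9, the factor missing in haemophilia B, fell by 0.40 ± 0.11 (adjusted p = 0.0205), from 211 to 303 CPM to 172 to 206, and was not called without hPPARa female PFOA replicate 1 (0.0671) or hPPARa female PFOA replicate 2 (0.0771). F10, F5 and F2 (prothrombin) of the common pathway stood at −0.04, −0.03 and −0.16, with adjusted p of 0.326 or more. Of the 3 fibrinogen chains, Fgg fell by 0.40 ± 0.14 (adjusted p = 0.0473), while Fgb stood at −0.34 ± 0.12 (0.0672) and Fga at −0.21 ± 0.13 (0.27). Fgg ranged from 2920 to 4571 CPM on vehicle and from 2121 to 3016 on PFOA, and its call ended with library totals (0.0555), in the joint model of all libraries (0.086) and without any 1 of 8 of the 10 libraries, all but hPPARa female vehicle replicates 1 and 2 (adjusted p between 0.0549 and 0.124). F13b, the carrier subunit of the enzyme that crosslinks fibrin, stood at −0.01 (adjusted p = 0.973).

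2 anticoagulants fell. Serpinc1, antithrombin, ranged from 2247 to 2580 CPM on vehicle and from 1807 to 2157 on PFOA, and Proc, protein C, from 615 to 734 and from 496 to 550. Neither overlapped, and they fell by 0.31 ± 0.09 and 0.34 ± 0.09 (adjusted p = 0.0278 and 0.0181). The Serpinc1 call ended with no filter on low counts (0.0835) and without hPPARa male vehicle replicate 1 or 2 or hPPARa female PFOA replicate 1 or 2 (0.0657 to 0.103), and the Proc call without hPPARa male vehicle replicate 1 (0.0752) or hPPARa female PFOA replicate 2 (0.0646). Vtn, vitronectin, which binds the complement pore, fell by 0.34 ± 0.11 (adjusted p = 0.033), and the call ended with library totals (0.0642) and without hPPARa male vehicle replicate 1 or 2, hPPARa male PFOA replicate 2 or 3 or hPPARa female PFOA replicate 1 (0.066 to 0.116). Pros1, the cofactor of protein C, Serpind1, heparin cofactor II, Serpinf2, antiplasmin, and Plg, plasminogen, stood between −0.04 and 0.16 with adjusted p of 0.32 or more. Proz, protein Z, and Cpb2, a carboxypeptidase that slows clot breakdown, stood at −0.27 ± 0.11 and −0.34 ± 0.13 (adjusted p = 0.0911 and 0.0864).

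**Figure D3:**
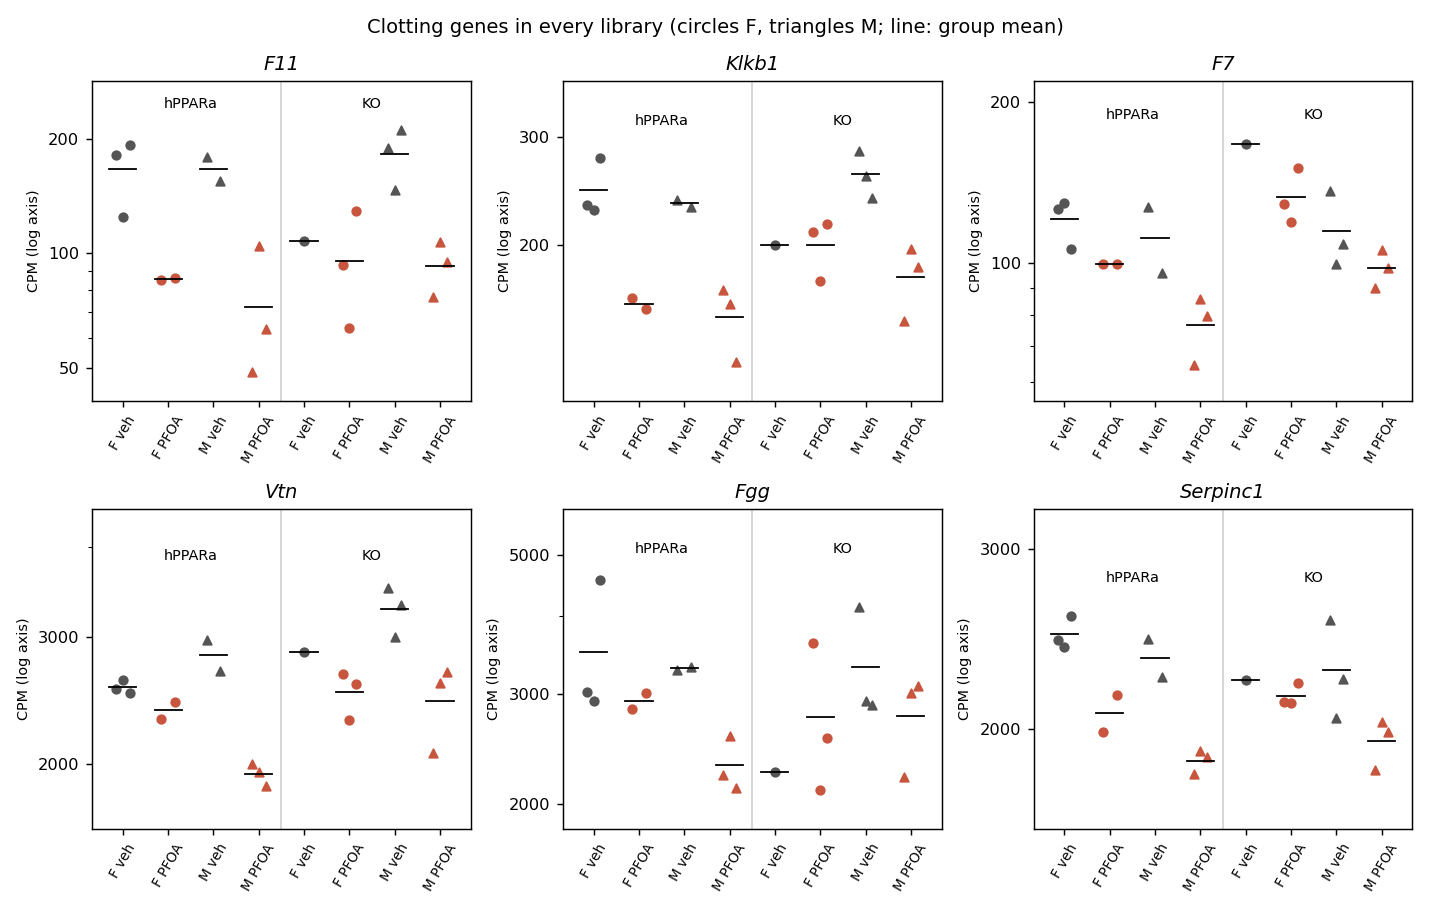
CPM of F11, Klkb1, F7, Vtn, Fgg and Serpinc1 in each library (log y axis), by genotype and exposure, with circles for females, triangles for males and lines for group means. In hPPARa livers F11, Klkb1, Vtn and Serpinc1 lie lower on PFOA with no overlap, while F7 and Fgg overlap between exposures.

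In KO livers PFOA was followed by fewer called falls. 3 of the 39 genes fell and 0 rose, where 6.36% of all 15334 genes tested fell and 7.41% rose. The 3 were C9, C8g and C4b, all complement genes that also fell in hPPARa livers. C9 fell by 1.54 ± 0.18, or 2.90-fold (adjusted p = 0.000236), from 237 CPM in the female and 802, 931 and 973 in the males on vehicle to 97.6, 92.2 and 143 in females and 219, 252 and 344 in males on PFOA. Within each sex no library overlapped. C8g read 379 CPM in the female and 377, 340 and 370 in the males on vehicle, against 318, 300.4 and 295 in females and 257, 275 and 258 in males on PFOA, and fell by 0.42 ± 0.08 (adjusted p = 0.0056). C4b fell by 0.47 ± 0.14 (adjusted p = 0.0409), with ranges of 705 to 982 CPM on vehicle and 523 to 826 on PFOA. The C4b call ended under 9 of 18 alternatives. Among these were equal weight for the sexes and the loss of any 1 of 7 of the 10 libraries. C9 was called under all 18 and C8g under 17. The medians were −0.09 for complement and −0.09 for clotting, against −0.02 over all genes.

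Of the 23 clotting genes, 0 passed the edgeR test in KO livers, where 7 were lower and 0 higher at an unadjusted p under 0.05 and DESeq2 called 5 lower (F11, F12, Proc, Klkb1 and Vtn). F11 read 107 CPM in the female and 190, 146 and 211 in the males on vehicle, and 93.2, 63.5 and 129 in females and 76.7, 107 and 94.7 in males on PFOA. The males did not overlap and the females did, and the value was −0.73 ± 0.23 (adjusted p = 0.059). Vtn stood at −0.35 ± 0.11, Proc at −0.27 ± 0.09 and Klkb1 at −0.38 ± 0.13 (adjusted p = 0.0523, 0.0584 and 0.0637). C8g, Proc and Vtn were the genes with every PFOA library below every vehicle library, as were 3.81% of all genes. The lone KO female on vehicle bore on this count. Without KO female vehicle replicate 1 the number lower was 6, namely C8a (−0.57), C8g (−0.46), C9 (−1.74), F11 (−0.98), Klkb1 (−0.56) and Cpb2 (−0.37), with adjusted p between 0.000548 and 0.0485, a comparison that then rests on the males. Without all 3 mixed libraries, 3 genes were lower, C9 (−1.68), F11 (−1.09) and Klkb1 (−0.64), at adjusted p of 0.00408, 0.0134 and 0.0364. C8g (−0.49, 0.062) and C4b (0.215) then no longer passed.

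The difference between the genotypes in the PFOA effect was tested directly in a fit of all 20 libraries. Of the 39 genes 0 passed in either direction, where 0.443% of 15811 genes were higher and 0.727% lower in KO minus hPPARa. By edgeR 5 were higher and 0 lower at an unadjusted p under 0.05, and DESeq2 called 0. The 5 were Hc (0.56 ± 0.19), Masp1 (0.38), Mbl2 (0.33), F9 (0.35) and Proz (0.33), with adjusted p of 0.179 or more. Hc read 245 to 371 CPM on vehicle and 145 to 230 on PFOA in hPPARa, but 220 to 373 and 199 to 324 in KO, and with no filter on low counts it was the 1 gene called (adjusted p = 0.0256). The difference for C9 was −0.10 ± 0.34, for F11 0.36 ± 0.33 and for Klkb1 0.24 ± 0.17. In simulated counts this comparison of all 20 libraries recovered 10.4% of 1.5-fold and 47.8% of 2-fold differences. The changed genes were drawn at random from all 15811, and the rate for the 39 genes themselves was not taken. The 0 calls therefore do not show that the genotypes responded alike.

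On vehicle, KO livers held more RNA of 3 complement genes and 1 anticoagulant. 4 of the 39 genes were higher and 0 lower, where 2.0% of 15811 genes were higher and 1.76% lower. 1 was lower and 8 higher at an unadjusted p under 0.05, and DESeq2 called 6 higher and 1 lower (C8g, −0.26, adjusted p = 0.0497). C2 read 35.6, 36.8 and 31.6 CPM in hPPARa females and 52.2 and 43.7 in males, against 57.8 in the KO female and 77.3, 90.5 and 64.3 in the KO males. All 4 KO libraries lay above all 5 hPPARa libraries, and C2 was higher by 0.76 ± 0.10, or 1.69-fold (adjusted p = 0.000263). C1ra was higher by 0.52 ± 0.10 (adjusted p = 0.00613), from 131, 159 and 144 CPM in hPPARa females and 199 and 184 in males to 188 in the KO female and 288, 268 and 276 in the KO males. Here the lone KO female lay inside the hPPARa males' range and the KO males lay above every hPPARa library.

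Pros1, the cofactor of protein C, read 41.3, 53.5 and 46.6 CPM in hPPARa females and 51.5 and 54.8 in males, and 59.7 in the KO female and 77.1, 76.2 and 88.7 in the KO males on vehicle. It was higher by 0.58 ± 0.12 (adjusted p = 0.008), with no overlap. C2, C1ra and Pros1 were called under all 28 alternatives, males on vehicle alone among them (0.70, 0.54 and 0.60). C3 was higher by 0.53 ± 0.14 (adjusted p = 0.0338), at 7404 to 10466 CPM in KO and 5616 to 7290 in hPPARa. Its call ended in males alone (0.31, adjusted p = 0.488), in the vehicle libraries alone (0.0757) and without the 3 mixed libraries (0.201). It also ended without hPPARa female vehicle replicate 1, 2 or 3 or hPPARa male vehicle replicate 2. The same held without KO male vehicle replicate 1 or KO female vehicle replicate 1. C2, C3, F5 and Pros1 did not overlap between genotypes, as was true of 2.99% of all genes in this direction. C8a (0.89 ± 0.28) and C6 (1.51 ± 0.47) did not pass (adjusted p = 0.0842 and 0.0905). C8a passed in males on vehicle alone (0.71, adjusted p = 0.0476), at 1297, 1386 and 1359 CPM in KO against 781 and 873 in hPPARa. It also passed without the 3 mixed libraries (1.35, adjusted p = 0.0282). C8g, at −0.27 ± 0.10 (adjusted p = 0.119), was called lower without hPPARa female vehicle replicate 1 (−0.33, adjusted p = 0.0487). Bile duct markers were higher in KO livers for 4 of 8 genes tested, where 2.0% of all genes were. Their sums were 82.4 to 107 CPM in KO males and 271 in the lone KO female, against 56.6 to 74.4 in hPPARa. The part of these markers in the values above was not tested.

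**Figure D4:**
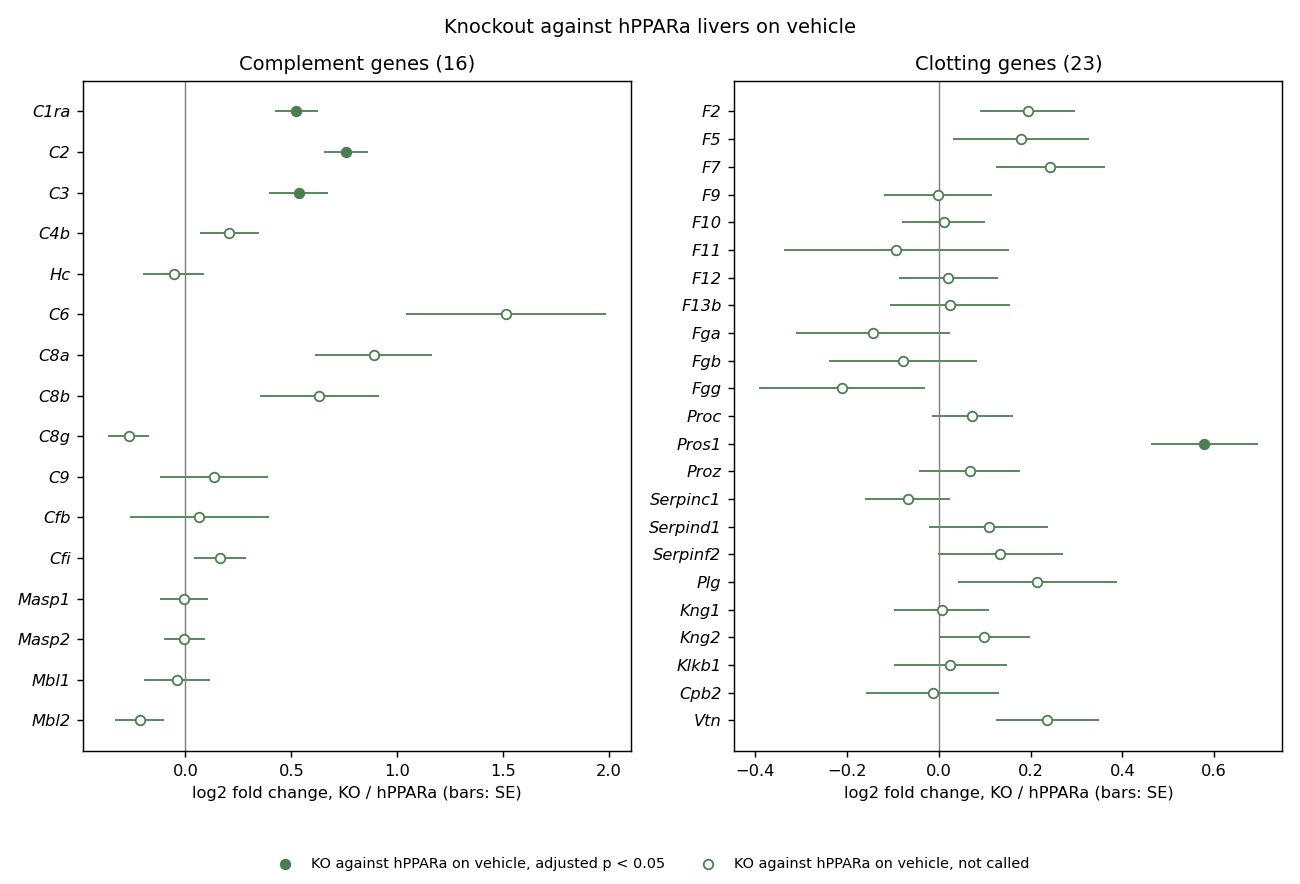
Log2 fold change of KO against hPPARa livers on vehicle (x axis, error bars ± SE) for the 39 genes, complement and clotting apart, with filled points for an adjusted p under 0.05. C2, C1ra, C3 and Pros1 are the filled points, all right of 0, and the points of C6 and C8a farther right are open with wide error bars.

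C6 and C8a were called higher in males in both genotypes, and the male to female ratios of pore genes are given here for each exposure. C6 read 14.4, 15 and 13.7 CPM in hPPARa females on vehicle and 214 and 282 in males, a ratio of means of 17.3. On PFOA it read 49.4 and 38.9 CPM in females and 94.8, 254 and 146 in males, a ratio of 3.74. C8a read 206, 229 and 221 CPM in females and 781 and 873 in males on vehicle, and 403 and 383 in females and 483, 684 and 543 in males on PFOA. The male to female ratio thus went from 3.78 to 1.45 for C8a, and for C8b and C9 from 2.79 to 1.17 and from 2.66 to 1.13. For Hc it went from 0.884 to 1.38, the other way, and for C8g from 1.10 to 0.984. In KO livers, where the 1 female on vehicle is a mixed library, the ratios went from 11.1 to 2.79 for C6 and from 4.68 to 1.71 for C8a. They went from 4.32 to 1.68 for C8b and from 3.81 to 2.45 for C9. Those of Hc and C8g went from 1.47 to 1.43 and from 0.956 to 0.865. With both exposures in an additive fit, C6 (2.98 ± 0.50) and C8a (1.22 ± 0.23) were higher in males in hPPARa (adjusted p = 0.0206 and 0.018), where 1.53% of genes were. No gene was lower (0, with 4 at an unadjusted p under 0.05 and 0 by DESeq2; 1.94% of genes). The count of 2 was 0 without hPPARa male vehicle replicate 1. It was 1 without hPPARa female vehicle replicate 2, hPPARa male PFOA replicate 2 or hPPARa female PFOA replicate 2. In KO livers C9 (1.49 ± 0.19), C6 (2.03), C8b (1.15), C8a (1.20) and Hc (0.53) were higher in males and Mbl2 (−0.55) and F7 (−0.48) lower (adjusted p between 0.00191 and 0.0281), where 1.26% of genes were higher and 2.15% lower. Without the 3 mixed libraries, C6 alone passed (1.66, adjusted p = 0.0113). The 5 higher became 3 without KO male vehicle replicate 1 and 2 without KO male PFOA replicate 3, and the 2 lower became 1 without KO male PFOA replicate 1 or 3 or KO female PFOA replicate 3 and 0 without KO female vehicle replicate 1. Of 15 Kupffer cell markers, 10 were lower in males in hPPARa (median −0.96) and 0 in KO livers by edgeR (median −0.40, with 4 lower at an unadjusted p under 0.05 and 1 by DESeq2), and their part in these differences was not tested.

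PFOA effects within each sex were fitted in models with a term for each group. In hPPARa females 4 genes rose, where 10.5% of genes did: C6 (1.59 ± 0.36, adjusted p = 0.0198), C8a (0.81 ± 0.15, 0.00312), Cfb (1.31 ± 0.36, 0.0361) and Plg (0.60 ± 0.18, 0.0395). 6 fell, where 7.87% of genes did, namely Hc (−0.92), C9 (−0.84), C8g (−0.53), Mbl2 (−0.67), F11 (−0.99) and Klkb1 (−0.65), with adjusted p between 0.0041 and 0.0466. These females rest on 2 PFOA libraries. The number lower was 0 when hPPARa female PFOA replicate 1 was left out, 1 when hPPARa female PFOA replicate 2 was, and 3 when hPPARa female vehicle replicate 3 was. The number higher was 1 when any of these or hPPARa female vehicle replicate 1 was left out, and 2 when either hPPARa male vehicle replicate was. In hPPARa males 7 genes fell and 0 rose (0 at an unadjusted p under 0.05 and 0 by DESeq2), where 2.90% of genes fell and 5.30% rose. C9 fell by 2.05 ± 0.22, or 4.13-fold (adjusted p = 0.000163), and C8g (−0.66), C8a (−0.54), F11 (−1.21), Klkb1 (−0.61), Vtn (−0.55) and F7 (−0.54) also fell, at adjusted p up to 0.0483. That count was 1 when either vehicle male was left out and 3 without hPPARa male PFOA replicate 3. It was 4 without hPPARa female vehicle replicate 1 or hPPARa female PFOA replicate 1 or 2.

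C8a was the gene whose PFOA effect differed between the sexes in hPPARa, by −1.35 ± 0.21 for males minus females (adjusted p = 0.0306), where 0.0625% of genes were lower and 0.0417% higher in this test. The call ended without hPPARa female vehicle replicate 1, hPPARa male vehicle replicate 1 or 2, hPPARa female PFOA replicate 1 or 2 or hPPARa male PFOA replicate 3 (adjusted p between 0.0589 and 0.23), and without hPPARa male PFOA replicate 2 the count was 4. C6 (−2.18 ± 0.50), C8b (−1.22) and C9 (−1.21) did not pass, with adjusted p between 0.221 and 0.254. In KO males C9 fell by 1.73 ± 0.20 (adjusted p = 0.00052), and C8a (−0.57), C8g (−0.46), F11 (−0.97) and Klkb1 (−0.55) fell at adjusted p of 0.0134 to 0.038, where 3.46% of genes fell. 0 rose in KO males (0 at an unadjusted p under 0.05 and 0 by DESeq2; 5.63% of genes). The 5 became 3 without KO male vehicle replicate 1 or 3 or KO male PFOA replicate 2, and 2 without KO male PFOA replicate 1 or 3. No such fit was made for KO females, who had 1 library on vehicle.

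The members' summed share of each library was also taken. The 16 complement genes held 0.818% to 1.20% of counts in hPPARa and 1.27% to 1.56% in KO libraries, which did not overlap. On the TMM scale the genotypes did overlap, at 12522 CPM in hPPARa male vehicle replicate 1 and 12173.5 in KO male PFOA replicate 1. C3 alone made up 52.2% to 73.1% of this sum. In hPPARa females the complement share was 0.886% to 1.05% on vehicle and 1.17% to 1.20% on PFOA, higher with no overlap, while in hPPARa males the means were 1.16% and 0.968%. The 23 clotting genes held 2.09% to 3.30% over all libraries, with the lowest mean in hPPARa males on PFOA (2.27% ± 0.196, SD, n = 3), against 2.87% ± 0.0776 (SD, n = 2) in hPPARa males on vehicle. In hPPARa females the clotting means lay closer, at 2.86% on vehicle (n = 3) and 2.79% on PFOA (n = 2).

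**Figure D5:**
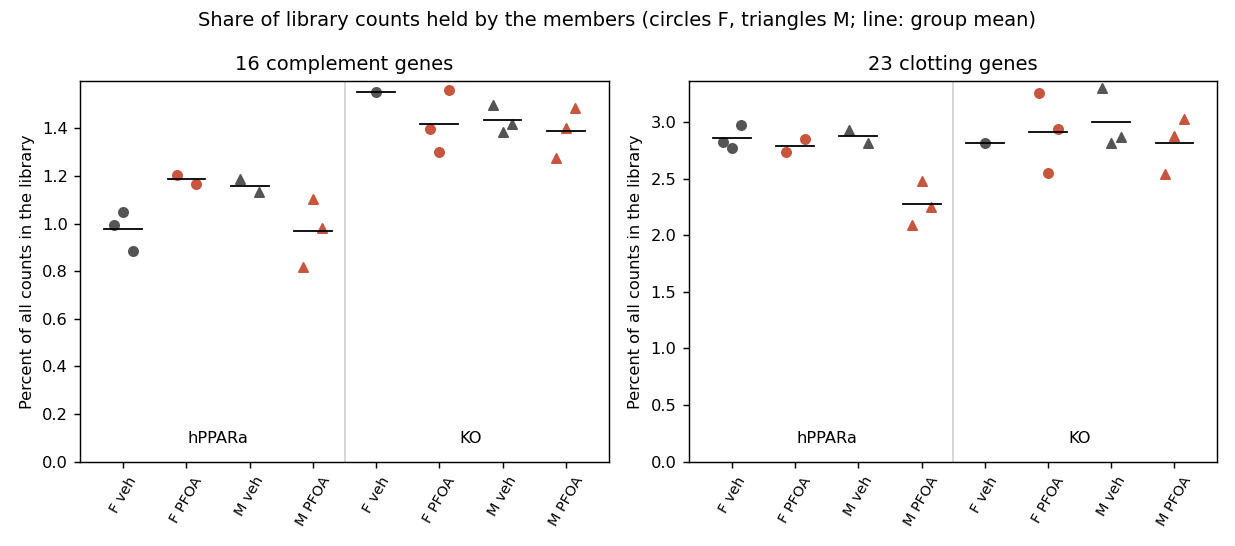
Percent of each library's counts held by the 16 complement genes and by the 23 clotting genes (y axes), by genotype and exposure, with circles for females, triangles for males and lines for group means. The complement share is higher in every KO library than in every hPPARa library, and the lowest clotting shares are those of hPPARa males on PFOA.

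Of the other complement genes listed, regulators, receptors and C1q among them, 7 of 23 fell and 1 rose with PFOA in hPPARa livers, with a median of −0.29. Over all genes, 9.76% fell and 12.8% rose there. Fcna, a lectin made by macrophages that starts the lectin arm, fell by 0.90 ± 0.11 (adjusted p = 0.000109), C1qa by 0.51 ± 0.12 (0.0072) and C4bp, the inhibitor of C4b, by 0.40 ± 0.12 (0.0289). Clu, clusterin, which blocks pore assembly, was the 1 that rose, by 0.46 ± 0.15 (adjusted p = 0.0416), from 975 to 2103 CPM on vehicle to 2002 to 2238 on PFOA. C4bp was not called without hPPARa male vehicle replicate 1 or 2, hPPARa female vehicle replicate 3 or hPPARa female PFOA replicate 1, and Clu without any 1 of 7 libraries, all but hPPARa male vehicle replicate 1 and hPPARa male PFOA replicates 1 and 3. In KO livers 0 of 25 passed by edgeR, where 6.36% of all genes fell and 7.41% rose. Of the 25, 4 were lower and 1 higher at an unadjusted p under 0.05, and DESeq2 called 1 in each direction. On vehicle Fcna alone differed, lower in KO by 0.55 ± 0.13 (adjusted p = 0.0244). The call was lost in males alone, in the vehicle libraries alone and without the 3 mixed libraries. It was also lost without hPPARa male vehicle replicate 2, hPPARa female vehicle replicate 3, KO male vehicle replicate 3 or KO female vehicle replicate 1.

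Of the other clotting genes listed, 2 of 24 fell and 2 rose with PFOA in hPPARa, and 3 of 26 fell and 1 rose in KO livers. Over all genes, 9.76% fell and 12.8% rose in hPPARa, and 6.36% fell and 7.41% rose in KO livers. Hgfac, a protease related to factor XII, fell by 0.59 ± 0.10 in hPPARa and by 0.45 ± 0.09 in KO livers (adjusted p = 0.000755 and 0.00503), and Apoh, a phospholipid-binding plasma protein, fell in hPPARa by 0.43 ± 0.11 (0.0115). F8, which endothelial cells make, rose in hPPARa by 0.40 ± 0.10 (adjusted p = 0.0115). It was not called without hPPARa female PFOA replicate 2 or in the joint model of all libraries. F3, tissue factor, and Serpine2 fell in KO livers by 0.76 ± 0.20 and 1.24 ± 0.30 (adjusted p = 0.0234 and 0.028). F3 was lost without KO male vehicle replicate 2 or KO male PFOA replicate 2 or 3. Serpine2 was lost without KO female PFOA replicate 1 or 2, KO male PFOA replicate 3, KO male vehicle replicate 3 or KO female vehicle replicate 1. It was also lost with no filter on low counts, with equal weight for the sexes and in the joint model of all libraries. On vehicle Hrg, histidine-rich glycoprotein, was higher in KO by 0.79 ± 0.12 (adjusted p = 0.000936), at 2423 to 2803 CPM against 1141 to 2038, though not in males on vehicle alone (0.55, adjusted p = 0.119). Without the 3 mixed libraries, none of Hgfac, F3 and Serpine2 passed in KO livers (adjusted p between 0.0888 and 0.134).

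Regulators and markers of neighbouring cell types were counted as well, and their part in the falls was not tested. Of 22 liver transcription factors and inflammatory signal genes, 9 fell and 0 rose in hPPARa (11 lower and 0 higher at an unadjusted p under 0.05, and 9 and 0 by DESeq2). Over all genes, 9.76% fell and 12.8% rose with PFOA in hPPARa. Il6ra, the interleukin 6 receptor, fell by 1.42 ± 0.14 (adjusted p = 2.11e-05), Onecut2 by 0.92 ± 0.12 (0.000112), Foxa3 by 0.84 ± 0.15 (0.0016) and Cebpb by 0.61 ± 0.12 (0.00306). The Cebpb call ended in the joint model of all libraries (adjusted p = 0.0514). Hnf4a stood at −0.10 ± 0.12 (adjusted p = 0.595) in hPPARa and 0.02 ± 0.10 (0.905) in KO livers. On vehicle 1 of the 22 was higher and 2 were lower in KO livers, where 2.0% of 15811 genes were higher and 1.76% lower. Cebpb was lower by 1.80 ± 0.24 (adjusted p = 0.000451), at 21.7 to 64.2 CPM in KO against 99.8 to 176 in hPPARa. In KO livers 4 of the 22 fell with PFOA and 2 rose, where 6.36% of all genes fell and 7.41% rose. Of 20 acute phase genes, 0 fell and 1 rose in hPPARa (4 lower and 2 higher at an unadjusted p under 0.05 and as many by DESeq2), and 0 fell and 4 rose in KO livers (2 lower and 6 higher at an unadjusted p under 0.05, and 1 and 5 by DESeq2), where Orm2 rose by 1.96 ± 0.16 (adjusted p = 1.83e-05).

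Over all genes tested, 9.76% fell and 12.8% rose with PFOA in hPPARa, and 6.36% fell and 7.41% rose in KO livers. Of 23 other hepatocyte genes, 14 fell with PFOA in hPPARa and 6 in KO livers. Their sum ranged from 169641 to 265514 CPM on vehicle and from 126697 to 170938 on PFOA in hPPARa. In KO livers it ranged from 143186 to 169136 and from 112294 to 141155. Kupffer cell markers fell for 5 of 15 in hPPARa (sum 257 to 752 CPM on vehicle and 253 to 584 on PFOA) and rose for 5 of 15 in KO livers (252 to 508 and 447 to 761). Endothelial markers rose for 7 of 14 in hPPARa and 2 of 14 in KO livers, and stellate cell markers fell for 3 of 13 in each. Bile duct markers fell for 6 of 8 in KO livers, where their sum was 46.2 to 76.7 CPM on PFOA. Of 10 leukocyte markers tested in KO livers 1 rose with PFOA, as did 1 of 8 in hPPARa, in both S100a8, which read 0.254 to 0.536 CPM on vehicle and 88.2 to 327 on PFOA in KO livers and carried their sum there. Leukocyte markers summed to 9.30 to 18.2 CPM on vehicle and 13.9 to 23.1 on PFOA in hPPARa, and to 9.33 to 20.4 and 101 to 339 in KO livers.

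Some counts could be split with a near-identical gene. In GENCODE M21 transcripts, C1ra shares 50.8% of its 50-base stretches with C1rb and Gm18840, C4b 35.2% with C4a, and C2 and Cfb 58% and 81.4% with the readthrough model Gm20547. Gm20547 held 0 counts in all 20 libraries, C1rb 0 to 2 and C4a 32 to 1517, so reads of C4b may have been left out where the 2 copies match. Stretches of Serpinc1, Masp2 and Plg lie opposite transcripts of Zbtb37 (58.8%), Tardbp (57.2%) and Slc22a3 (13.8%), and the strand setting of the counting was not given in the sources used here.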

How the data were processed

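Whole-liver RNA of 20 samples was counted per gene by the authors, who deposited 2 tables of raw read counts, 1 per genotype, with the same 53599 symbols. The submitters' processing notes name GRCm39 as genome build and STAR 2.5.3 and featureCounts 1.6.1 among the tools, beside edgeR 3.36.0 under R 4.1.0, FastQC 0.11.5 and cutadapt 1.15. The annotation release and the strand setting were not given in the sources used here. All rows named a gene, and 17159 symbols had no count.

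Samples were grouped by sex, genotype and exposure from their titles. The counts were analysed in R 4.3.3 with edgeR 4.0.16, using TMM factors, a filter on low counts by group, and a robust quasi-likelihood fit. Benjamini-Hochberg adjustment ran over all genes tested, with a threshold of 0.05. Each SE was derived from the F statistic of the test, as |log2 fold change| over its square root. PFOA effects were fitted per genotype with sex as a term, effects within a sex in models with a term for each group, and genotype comparisons in 1 model of all 20 libraries, with the sexes weighted equally. CPM values used TMM factors over all 20 libraries, and are not comparable between genes, since they take no account of transcript length. DESeq2 1.42.0, other normalizations, no filter, a replicate block and left-out libraries were alternatives. The code was tested on simulated counts.

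Promoter windows of 300 bases from RefSeq (GRCm38.p6), 250 before and 50 after the start, were searched on both strands. Their coordinates are of another build than the counts and were not joined to them. Replicates of a group differed beyond counting noise in all 17 pairs. Totals of 14973673 to 17953860 counts per sample limit the precision of the genes of few counts. The members and gene lists were chosen with earlier results of these data known. The genes named were all 39 members where their value bears on a comparison, at most 4 called genes with the smallest adjusted p from each other list and comparison, and Ppara, Ehhadh, Cyp2b10 and Hnf4a. Some genes counted in the other lists are not reported here by name. Cyp2b10, the target of the receptor CAR, rose with PFOA by 8.99 ± 0.59 in hPPARa and 9.47 ± 0.24 in KO livers (edgeR, adjusted p = 2.66e-05 and 4.74e-11).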

Additional observations from a re-analysis of the deposited data

Results flagged for a closer look

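In hPPARa livers the PFOA effect on C8a differed between the sexes by −1.35 ± 0.21 (males minus females, log2 scale, edgeR, adjusted p = 0.0306), and the gene was not called under 7 of 15 alternatives. It fell in males, from 781 and 873 CPM to 483, 684 and 543, and rose in females, from 206, 229 and 221 CPM to 403 and 383.

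Between the genotypes the PFOA effect (KO minus hPPARa) differed for 3 genes outside the 39 members. For Fcna, a macrophage lectin of complement, the difference was 0.98 ± 0.18 (adjusted p = 0.0103), and it was called under all 26 alternatives. Fcna read 19.5 to 36.1 CPM on vehicle and 8.83 to 20.3 on PFOA in hPPARa, against 12.6 to 20.9 and 14.7 to 25.0 in KO livers. Orm2, an acute phase glycoprotein, differed by 1.40 ± 0.30 (adjusted p = 0.034), and was not called under 9 of 26 alternatives. It read 10.2 to 18.8 and 14.5 to 29.5 CPM in hPPARa, against 11.2 to 20.6 and 47.7 to 68.7 in KO livers. Orm3 differed by 2.06 ± 0.47 (adjusted p = 0.0461), and was not called under 18 of 26 alternatives. It read 7.02 to 34.8 and 6.68 to 13.5 CPM in hPPARa, against 9.92 to 42.0 and 40.1 to 73.3 in KO livers.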

How the results depend on the processing

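No called gene or count changed direction under the alternatives that were run. Some medians did, these among them. For PFOA in KO the complement median was 0.000374 without KO male PFOA replicate 1. The median of all genes was 0.04 for PFOA in hPPARa and 0.01 in KO with library totals only. Without the 3 mixed libraries the complement median for PFOA by genotype went from 0.07 to −0.08, and that of all 39 genes from 0.12 to −0.01. For male against female in KO the clotting median then went from 0.02 to −0.15, and that of all 39 genes from 0.06 to −0.14. Counts of member genes called lower or higher moved by over 1.5 times as follows, and the cause was not tested. With DESeq2 the number lower was 8 for PFOA in KO, 1 for KO against hPPARa on vehicle, 12 for PFOA in hPPARa males, 11 for PFOA in KO males and 4 for PFOA by sex, and the number higher was 6 for male against female in hPPARa. With no filter on low counts the number lower was 6 for PFOA in KO, 12 in hPPARa males, 10 in KO males and 5 by sex, and 1 was higher for PFOA by genotype. PFOA in KO gave 5 lower with library totals only, 7 in the joint model, and 1 higher (C8b) with equal weight for the sexes. Without the 3 mixed KO libraries, 3 were lower in KO males, and 1 higher and 0 lower for male against female in KO.

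With 1 library left out at a time, PFOA in hPPARa gave 6 to 16 lower and 0 to 1 higher, PFOA in KO 2 to 6 lower, and KO against hPPARa on vehicle 0 to 1 lower and 3 to 5 higher. PFOA in hPPARa males gave 1 to 10 lower, in hPPARa females 0 to 7 lower and 1 to 6 higher, and in KO males 2 to 7 lower. PFOA by sex gave 0 to 4 lower, male against female 0 to 3 higher in hPPARa, and 0 to 2 lower and 2 to 5 higher in KO. Where 1 sample remained in a group, it was taken to vary like the others.

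PFOA in hPPARa gave 11 lower with library totals only (5 complement, 6 clotting). With the replicate number as a block it gave 10 (5 and 5), PFOA by sex gave 0 lower, and male against female in KO 0 lower and 1 higher. Samples with the same number did not deviate together (r from −0.11 to 0.12 over 13 pairs in hPPARa, and −0.107 to 0.029 over 9 pairs in KO), so the numbers were not taken as pairs. Depth kept none of the 39 genes out of a test. Groups held 1 to 3 libraries, with 1 KO female on vehicle and 2 hPPARa females on PFOA.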
